A study of Rattus norvegicus with 8 samples.

Results

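Amino acid transporter RNA was compared between livers of 21-day-old rats whose dams had lacked dietary methyl donors and livers of rats whose dams had eaten a standard diet. The transporters are those of the SLC1, SLC3, SLC6, SLC7, SLC36, SLC38 and SLC43 families, taken as every non-control probe whose gene name on the array begins with one of the 7 family stems. The stems matched 77 of the 30367 probes and 62 gene names. Of these names 61 are transporters, with the SLC3 heavy chains counted among them. The last, Slc7a6os, matched by name only, since it is a neighbour of Slc7a6 on the opposite strand. The deficient group was 4 Wistar rats, 2 females and 2 males, from dams given a diet without vitamin B12 and folates from before pregnancy until weaning. The control group was 4 Wistar rats of the same age, 3 females and 1 male, from dams given standard food over the same period. Total RNA from whole liver was labelled with Cy3 or Cy5 and hybridised to 2-colour Agilent rat arrays, each holding 1 deficient and 1 control animal. Dams and litters are not given in the labels, so the p-values below measure only the spread between these animals.

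These families move amino acids and related small molecules across cell membranes. SLC1 proteins use the sodium gradient to bring in glutamate, aspartate and small neutral amino acids. SLC3 proteins are heavy chains that carry many of the SLC7 light chains to the surface, while the other SLC7 proteins carry cationic amino acids by themselves. SLC38 proteins take up glutamine, alanine and other neutral amino acids with sodium, and SLC36 proteins couple transport to protons. Of the SLC43 proteins, those of Slc43a1 and Slc43a2 let branched-chain amino acids pass by facilitated diffusion, and that of Slc43a3 carries purine nucleobases. SLC6 holds carriers of neutral amino acids and of taurine, betaine, creatine and neurotransmitters. The liver uses such carriers to extract amino acids from portal blood for protein, urea, glutathione and glucose synthesis.

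Each array had 42877 non-control spots, no spot of which was saturated in either channel. Median spot signals lay between 153 and 299 in the 8 samples, over median backgrounds between 33 and 58, and 59.1 to 65.5% of spots were well above background. A probe had to be well above background in 4 or more of the 8 livers, and the brightest such probe of a gene stood for it in the test. By this filter 28 of the 62 names, 27 of them transporters, were tested, 34 were not, and 22 of these 34 had no sample above background on any probe while 12 were above it in too few. A gene was called when limma's moderated test gave an adjusted p below 0.05 after Benjamini-Hochberg correction over all 14912 genes tested. Values are normalized intensities on the log2 scale, and differences are deficient minus control on that scale. Because an offset of 50 was added to every intensity before the logarithm, differences of dim probes are understated.

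Of the 28 genes tested, 5 differed between the diets. Slc1a2 and Slc7a2 rose in deficient livers, and Slc1a3, Slc43a1 and Slc6a13 fell. Over all genes tested 11.1% were called, 4.53% higher and 6.59% lower, and among the transporter names the share was 17.9%. The median difference over the 28 genes was 0.02, against 0.01 over all genes, and single genes ranged from −0.94 to 0.69. At an unadjusted p below 0.05 there were 9 genes, 3 higher and 6 lower, where 27.6% of all genes passed that level. The groups did not overlap in 3 genes (Slc7a2 above, Slc1a3 and Slc43a1 below), against 11.5% of all genes, with 5.51% above and 6% below.

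**Figure D1:**
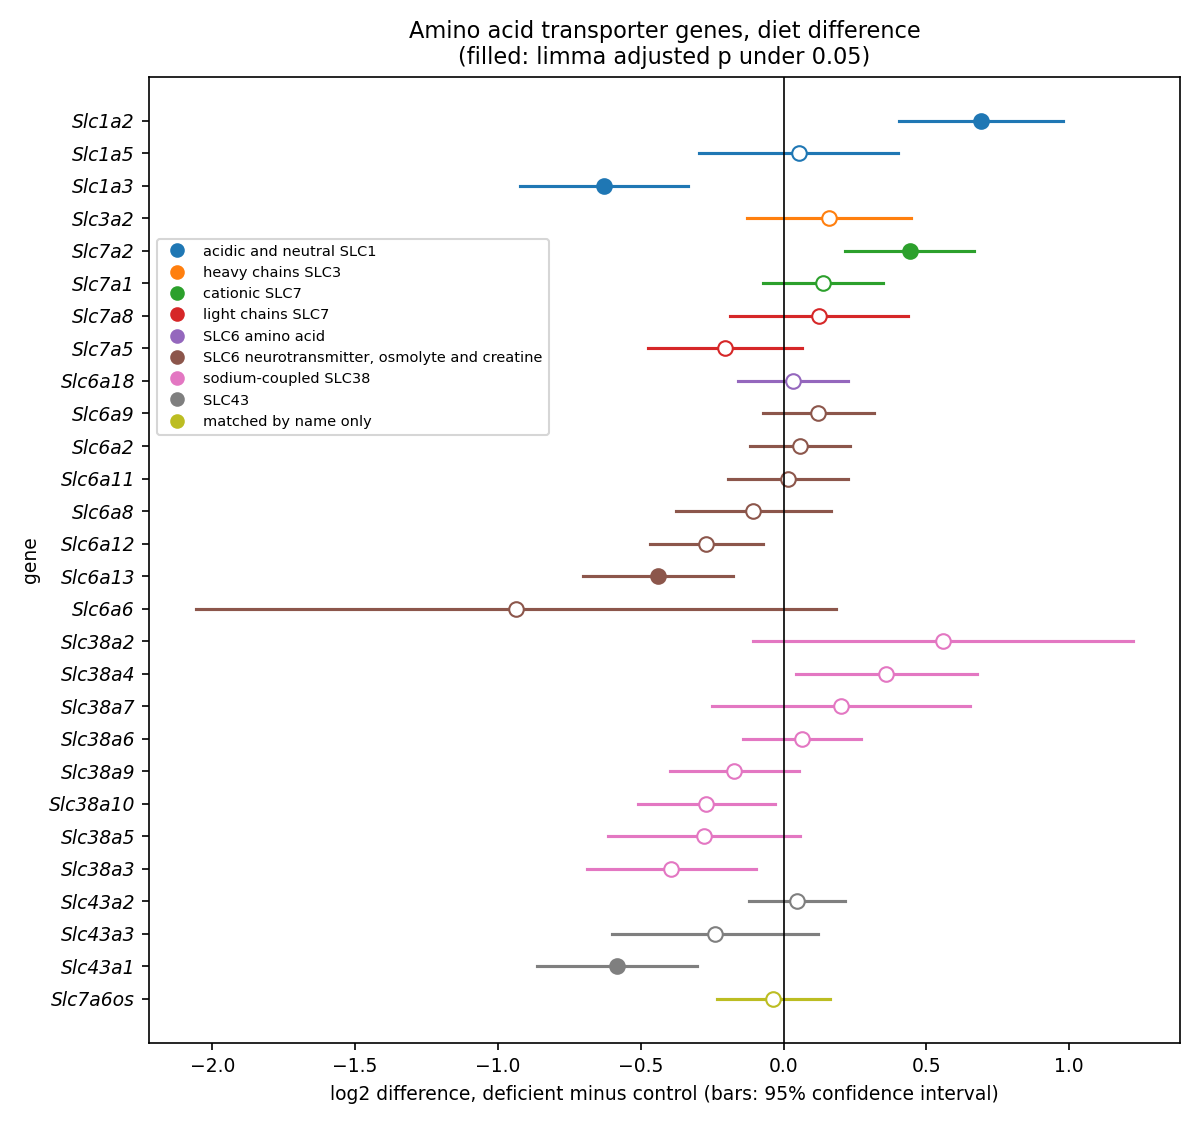
Difference between deficient and control livers for each of the 28 tested names, ordered by family, on the log2 scale with deficient minus control on the x axis. Points are limma estimates from 4 deficient and 4 control animals, bars are 95% confidence intervals and filled points have an adjusted p below 0.05; the widest interval is that of Slc6a6, from −2.06 to 0.18.

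The glutamate carriers of SLC1 moved in opposite directions. Slc1a2 encodes GLT-1, a high-affinity carrier of glutamate and aspartate that rat liver is known to place in the hepatocytes around the central vein. Its probe at chr3:87988366-87988425 (rn4, plus strand) read 7.84, 7.25, 8.12 and 8.08 in deficient replicates 1 to 4, against 6.98, 6.93, 7.17 and 7.44 in control replicates 1 to 4. The deficient values of replicates 1, 3 and 4 were above every control, and deficient replicate 2 was level with the controls. Slc1a2 averaged 7.82 ± 0.40 in deficient livers and 7.13 ± 0.23 in control livers (SD, n = 4 each), a difference of 0.69 ± 0.13 (SE) and 61.5% more signal, with an adjusted p of 0.0124 by limma. The deficient animal was higher on 3 of 4 arrays. The probe at chr3:87992261-87992320, which represents another transcript of the gene, was well above background in 2 deficient and 0 control animals and was not tested. It read 6.85, 6.62, 7.0 and 7.08 in deficient livers, against 6.66, 6.52, 6.59 and 6.64 in control livers.

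Slc1a3 encodes GLAST, a glutamate and aspartate carrier best known from astrocytes. Its probe at chr2:58270245-58270304 (rn4, minus strand) read 7.65, 7.10, 7.46 and 7.09 in deficient livers, against 7.69, 7.81, 8.37 and 7.93 in control livers. Every deficient value lay below every control value, with deficient replicate 1 only just below control replicate 1. Slc1a3 averaged 7.32 ± 0.27 in deficient livers and 7.95 ± 0.30 in control livers (SD, n = 4 each), a difference of −0.63 ± 0.13 (SE) with an adjusted p of 0.0196 by limma, and it was lower on 4 of 4 arrays. The other Slc1a3 probe was not well above background in any sample. Both genes are dim on these arrays, and with the signals as processed by Feature Extraction, which changed the offset and normalization along with the background correction, the difference was 1.31 for Slc1a2 and −1.16 for Slc1a3. Without background subtraction it was 0.72 and −0.69.

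Slc1a5, the neutral amino acid exchanger ASCT2, did not pass the test. Its values ran from 8.07 to 8.94 in deficient livers and from 8.22 to 8.83 in control livers, with a difference of 0.05 ± 0.15. Slc1a1, the epithelial and neuronal glutamate carrier, and Slc1a4, the alanine, serine and cysteine carrier, were well above background in 1 deficient and 0 control animals each and were not tested.

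Central and portal hepatocytes differ in what they express, and markers of the central zone were measured beside Slc1a2. Of 7 pericentral markers 6 were tested with a median difference of −0.18, none rose, and Glul and Cyp1a2 fell by 0.70 and 1.19 on the log2 scale. The mean level of those 6 markers lay between 11.49 and 12.37 in deficient livers and between 12.18 and 12.52 in control livers. Of 7 periportal markers, all tested with a median difference of 0.42, Ass1 and Sds rose while Arg1 and Cyp2f4 fell. Their mean level was 13.34 to 14.29 in deficient livers and 13.41 to 13.87 in control livers. Beside these counts, 4.53% of all genes tested were called higher and 6.59% lower. The part of zonation in the Slc1a2 and Slc1a3 differences was not tested. In whole liver, fewer cells of a type and less RNA per cell cannot be told apart.

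Slc7a2 encodes CAT-2, a carrier of arginine, lysine and ornithine, and was the other gene that rose. Its probe at chr16:54752462-54752521 (rn4, minus strand) read 8.34, 8.40, 8.09 and 8.50 in deficient livers, against 7.78, 7.72, 7.99 and 8.09 in control livers. At full precision every deficient value exceeded every control value, although deficient replicate 3 and control replicate 4 were both 8.09 to the digits shown. Slc7a2 averaged 8.33 ± 0.17 in deficient livers and 7.89 ± 0.17 in control livers (SD, n = 4 each), a difference of 0.44 ± 0.10 (SE) or 35.8% more signal, with an adjusted p of 0.0265 by limma. It was higher on 4 of 4 arrays. Slc7a1, which encodes the widely expressed CAT-1, did not pass (6.87 to 7.22 in deficient livers, 6.83 to 7.05 in control livers, difference 0.14 ± 0.09).

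The exchangers formed by SLC3 heavy chains and SLC7 light chains gave no call. Slc3a2, the 4F2 heavy chain, read 10.83, 11.21, 10.94 and 11.34 in deficient livers, against 11.24, 11.13, 10.62 and 10.69 in control livers, with an adjusted p of 0.453 by limma. Of the 10 light chain genes on the array only Slc7a5 and Slc7a8 were tested. Slc7a5 encodes LAT1, the large neutral amino acid exchanger, and differed by −0.21 ± 0.12. It was dim, well above background in 1 deficient and 3 control animals. With the Feature Extraction processed signals it differed by −0.64, with an adjusted p of 0.277 by limma. Slc7a8 encodes LAT2 and differed by 0.12 ± 0.14. Slc7a11, the cystine and glutamate exchanger that feeds glutathione synthesis, was not well above background in any of the 8 livers on either of its probes. The same held for Slc3a1, the heavy chain of the kidney cystine carrier, and for Slc7a10. Slc7a6, Slc7a7 and Slc7a9 were above background in 1, 1 and 0 deficient animals, against 0, 2 and 1 control animals.

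SLC43 held the third gene that fell. Slc43a1 encodes LAT3, a facilitative carrier of leucine, isoleucine, valine, methionine and phenylalanine. Its probe at chr3:68083249-68083308 (rn4, plus strand) read 8.19, 8.27, 8.76 and 8.58 in deficient livers, against 8.78, 9.32, 9.01 and 9.02 in control livers. The groups did not overlap, and the closest values were those of deficient replicate 3 and control replicate 1. Slc43a1 averaged 8.45 ± 0.27 in deficient livers and 9.03 ± 0.22 in control livers (SD, n = 4 each), a difference of −0.58 ± 0.12 (SE) with an adjusted p of 0.021 by limma. The 2 animals of array 1 are the pair just named and differed by only −0.02, while the other arrays gave −0.82, −0.74 and −0.75. Slc43a2 encodes LAT4, another carrier of that kind, and its 2 tested probes differed by 0.05 and −0.08, neither of which passed. Slc43a3, a carrier of purine nucleobases, differed by −0.24 ± 0.16 and did not pass, and the median over the 3 SLC43 genes was −0.24. On rn4 the probes of Slc43a1 and Slc43a3 are 89.7 kb apart on chromosome 3.

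Slc6a13 encodes GAT2, a carrier of GABA and taurine known mainly from liver and kidney. Its probe at chr4:157771827-157771886 (rn4, plus strand) read 12.36, 11.89, 11.66 and 12.22 in deficient livers, against 12.40, 12.64, 12.51 and 12.34 in control livers. Deficient replicate 1 overlapped the controls, and deficient replicate 3 was the lowest of the 8. Slc6a13 averaged 12.03 ± 0.32 in deficient livers and 12.47 ± 0.13 in control livers (SD, n = 4 each), a difference of −0.44 ± 0.12 (SE) with an adjusted p of 0.0449 by limma, and it was lower on 4 of 4 arrays. Slc6a12 lies 27.8 kb away on the same chromosome and encodes BGT1, which carries betaine and GABA. Betaine is the methyl donor that liver uses to remethylate homocysteine without folate or vitamin B12. Slc6a12 read 10.33, 10.25, 10.12 and 10.50 in deficient livers, against 10.55, 10.70, 10.62 and 10.41 in control livers. All deficient values but that of replicate 4 were below the lowest control, and the deficient animal was lower on 4 of 4 arrays. The difference was −0.27 ± 0.09 (95% interval −0.47 to −0.07) and did not pass, with an adjusted p of 0.0819 by limma.

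**Figure D2:**
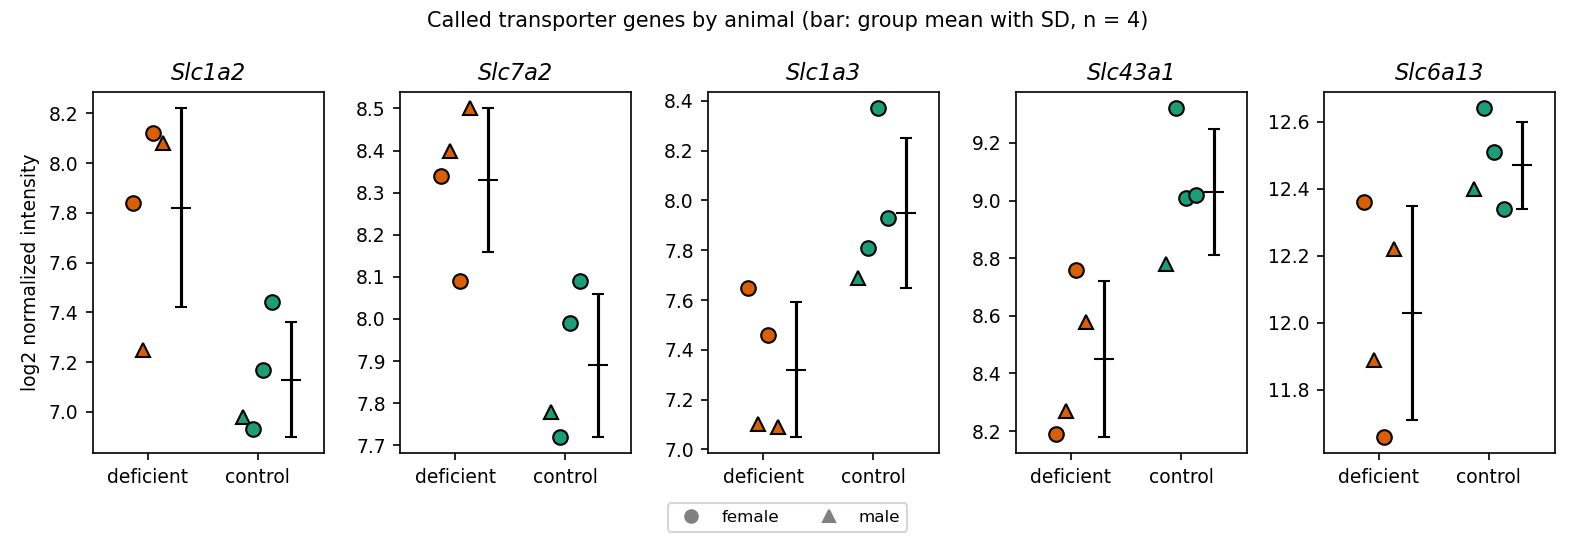
Log2 normalized intensity of the 5 called genes in each animal, with deficient livers left of control livers, circles for females and triangles for males, and bars for the mean and SD of 4 animals. Each panel has its own y axis, which does not start at 0; the groups overlap for Slc1a2 and Slc6a13, and those of Slc7a2 touch at 8.09.

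How far these 5 calls hold depends on single animals. Leaving out each animal or each array in turn, which gave 12 refits, kept the direction of all 5 genes. The call was kept in 8 refits for Slc43a1, in 7 for Slc1a2, in 7 for Slc1a3, in 5 for Slc7a2 and in 2 for Slc6a13. Without deficient replicate 4 none of the 5 was called, with adjusted p from 0.0605 to 0.125 by limma, and without array 3, which holds that animal and control replicate 2, none was called either (0.121 to 0.247). Without control replicate 3 none was called, with adjusted p from 0.069 to 0.187. Without control replicate 2 only Slc43a1 kept its call. The other losses were Slc1a2 without array 1, Slc1a3 without control replicate 4, Slc43a1 without array 2, Slc7a2 without control replicate 1, control replicate 4 or array 2, and Slc6a13 in every refit other than those without deficient replicate 1 or 2. When the spots whose surroundings were very bright were not left out, Slc1a2 differed by 0.41 (adjusted p 0.215 by limma), Slc7a2 by 0.25 (adjusted p 0.128) and Slc43a1 by −0.41 (adjusted p 0.0581). With ratios within each array none of the 5 was called (adjusted p 0.0511 to 0.0955), none was called in females alone, and without the array block Slc1a2 alone was. With sex as a term Slc7a2, Slc43a1 and Slc6a13 were not called (adjusted p 0.0712, 0.0539 and 0.107). Slc6a13 was also not called with the authors' deposited normalized values (−0.41, adjusted p 0.0857) or with the Feature Extraction processed signals (0.0758). The same held with quantile normalization over single channels (0.0785) and without the filter on dim probes (0.0603). Without a dye term Slc6a13, Slc1a2 and Slc7a2 were not called (adjusted p 0.095, 0.0727 and 0.0515 by limma). In all, Slc6a13 lost its call in 19 of the 29 alternatives, Slc7a2 in 13, and Slc1a2 and Slc43a1 in 9 each. Slc1a3 lost its call in 8 of the 28 in which it was tested.

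**Figure D3:**
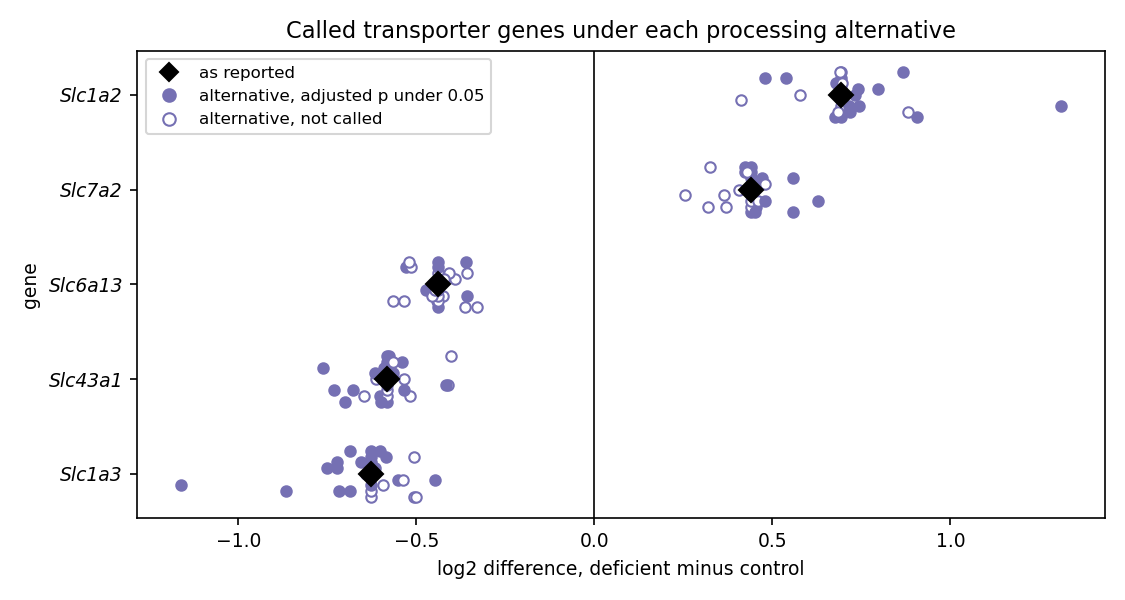
Difference of each called gene, deficient minus control on the log2 scale, as reported (diamond) and under each processing alternative (circles, filled where the adjusted p stayed below 0.05). No alternative turned a direction; the values farthest from the diamonds are 1.31 for Slc1a2 and −1.16 for Slc1a3, from the Feature Extraction processed signals.

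The sequence around the start of a gene is where methylation of CG pairs, which draws on the methyl groups that these diets supply, is most studied. No methylation was analysed here, and the windows below are shown only to place the called genes by their CG content. They come from RefSeq on the GRCr8 build, run from 250 bases before to 50 bases after the gene start, read 5′ to 3′ on the strand of the gene, and carry each CG pair in capitals. Windows were found for 3 of the 5 called genes, Slc1a2, Slc1a3 and Slc43a1, and for 47 member genes in all. Slc1a2 has a pair of alternative starts, Slc1a3 has 3 overlapping windows of which 1 is shown, and Slc43a1 has 1.
Slc1a2 at chr3:109459859-109460158, plus strand: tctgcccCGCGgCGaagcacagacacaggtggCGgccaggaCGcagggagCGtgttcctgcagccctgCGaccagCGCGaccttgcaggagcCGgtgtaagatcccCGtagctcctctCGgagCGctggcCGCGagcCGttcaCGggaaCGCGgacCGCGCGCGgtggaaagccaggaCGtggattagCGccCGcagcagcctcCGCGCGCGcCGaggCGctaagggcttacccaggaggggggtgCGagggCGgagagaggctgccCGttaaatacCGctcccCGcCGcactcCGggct
Slc1a2 at chr3:109507697-109507996, plus strand: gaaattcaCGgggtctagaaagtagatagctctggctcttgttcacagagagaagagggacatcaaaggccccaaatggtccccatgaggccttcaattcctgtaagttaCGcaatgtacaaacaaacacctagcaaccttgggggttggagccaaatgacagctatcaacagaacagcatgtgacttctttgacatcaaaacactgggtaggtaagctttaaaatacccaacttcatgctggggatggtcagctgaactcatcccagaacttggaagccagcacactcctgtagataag
Slc1a3 at chr2:59557738-59558037, minus strand: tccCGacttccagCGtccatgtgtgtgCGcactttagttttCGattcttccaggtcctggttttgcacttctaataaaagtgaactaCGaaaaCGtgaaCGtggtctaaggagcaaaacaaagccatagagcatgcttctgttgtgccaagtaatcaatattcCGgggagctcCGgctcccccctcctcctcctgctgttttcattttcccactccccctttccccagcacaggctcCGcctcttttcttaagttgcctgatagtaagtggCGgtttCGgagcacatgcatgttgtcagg
Slc43a1 at chr3:90327072-90327371, plus strand: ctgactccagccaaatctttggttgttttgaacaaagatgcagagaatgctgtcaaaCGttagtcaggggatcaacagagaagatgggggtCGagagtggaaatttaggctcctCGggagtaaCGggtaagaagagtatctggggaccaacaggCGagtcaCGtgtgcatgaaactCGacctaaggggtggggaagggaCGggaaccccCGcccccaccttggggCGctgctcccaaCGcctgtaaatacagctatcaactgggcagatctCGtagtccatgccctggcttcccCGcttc

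The median over all 33469 promoter windows of this length was 7 CG pairs, with quartiles at 3 and 19. The member genes had 51 windows with a median of 13. The upstream window of Slc1a2, which rose, held 39 CG pairs and stood at the 96.2 percentile of all windows, whereas its downstream window held 2. The windows of Slc1a3 and Slc43a1, which fell, held 12 and 13. The windows were also searched on both strands for TTNCATCA, the core of the C/EBP-ATF response element through which amino acid shortage is known to act on several transporter genes. It occurred in 3.98% of all windows and in 3 of the 51 member windows (5.88%), those of Slc1a4, Slc38a1 and Slc7a1. Slc7a1 was tested and not called, while Slc1a4 and Slc38a1 did not reach the filter and were not tested. TTNCATCA was in none of the windows of Slc1a2, Slc1a3 and Slc43a1, which says only that these letters are not in them.

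Of the 11 sodium-coupled SLC38 genes 8 were tested, and none passed. The median difference over the 8 was −0.05, and the range was −0.39 to 0.56. Slc38a4 encodes SNAT4, a neutral and cationic amino acid carrier abundant in liver. It read 15.59, 15.50, 14.71 and 15.34 in deficient livers, against 15.10, 14.83, 14.94 and 14.83 in control livers. All deficient values but that of replicate 3, which was the lowest of the 8, were above every control, and the difference of 0.36 ± 0.14 had an adjusted p of 0.134 by limma. Without deficient replicate 3 the difference was 0.55 and passed, with an adjusted p of 0.0106, and without array 1, which holds that animal, it was 0.59 with an adjusted p of 0.0184. It was smaller in other refits, at 0.22 without deficient replicate 4, 0.21 without control replicate 2 and 0.13 without array 3, which holds both, with adjusted p from 0.434 to 0.696.

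Slc38a2 encodes SNAT2, the system A carrier whose transcript is known to rise in cells short of amino acids. It read 10.61, 12.28, 10.52 and 11.15 in deficient livers, against 10.91, 10.16, 10.32 and 10.92 in control livers. Deficient replicate 2 stood far above the rest, and the difference of 0.56 ± 0.29 did not pass, with an adjusted p of 0.256 by limma. Without that animal it was 0.22, and over the 12 refits it ran from 0.21 without array 3 to 0.91 without array 1, none of which passed. Slc38a3 encodes SNAT3, the system N carrier of glutamine and histidine in liver. It read 10.70, 11, 11.29 and 11.55 in deficient livers, against 11.17, 11.74, 11.74 and 11.46 in control livers. The groups overlapped and the difference of −0.39 ± 0.13 had an adjusted p of 0.089. Without deficient replicate 2 it was −0.48 and passed with an adjusted p of 0.0373, and without array 4, which holds that animal, it was −0.54 with an adjusted p of 0.0292. It moved the other way, to −0.27, without deficient replicate 1 or without control replicate 2, and to −0.25 without array 2, with adjusted p from 0.179 to 0.307.

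The other SLC38 genes were closer to 0. Slc38a9, a lysosomal arginine carrier that reports amino acids to mTORC1, differed by −0.17 ± 0.10, Slc38a7, a lysosomal glutamine carrier, by 0.20 ± 0.20, Slc38a5, a glutamine and histidine carrier, by −0.28 ± 0.15, Slc38a6 by 0.06 ± 0.09, and Slc38a10 by −0.27 ± 0.10 with an adjusted p of 0.136 by limma. Slc38a9 was dim, well above background in 2 deficient and 4 control animals. With the Feature Extraction processed signals it differed by −0.52, with an adjusted p of 0.2 by limma. Slc38a1 was not well above background in any liver. On rn4 the probes of Slc38a2 and Slc38a4 lie 327 kb apart on chromosome 7, and both differences were above 0. The 4 proton-coupled SLC36 genes did not reach the filter. Slc36a1, the lysosomal and brush border carrier of small amino acids, was above background in no sample, and one of the 2 Slc36a4 probes was above it in 2 deficient and 1 control animals.

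Slc6a6, the taurine carrier TauT, had the widest spread of any member. It read 10.12, 7.59, 10.31 and 7.57 in deficient livers, against 10.41, 9.60, 10.23 and 9.10 in control livers. The deficient males, replicates 2 and 4, were far below the other 6 animals, and the deficient females were within the range of the controls. The SD of Slc6a6 was 1.52 in deficient livers, at the 99.9 percentile of all genes tested, and 0.60 in control livers, at the 98.2 percentile. Over all animals the difference was −0.94 ± 0.49 (95% interval −2.06 to 0.18), with an adjusted p of 0.259 by limma. The split by sex was chosen after these values were seen. Deficient females averaged 10.22 and deficient males 7.58, a 6.2-fold gap, while control females averaged 9.64 and the single control male read 10.41. The difference between the diet effects in males and females was −3.04 ± 0.63 in limma, with an unadjusted p of 0.00191 and an adjusted p of 0.375. No gene of 14894 passed for that term, and 1343 had an unadjusted p below 0.05. The male effect rests on 1 control animal, and the deficient males also share a title letter of unstated meaning. The deficient males were on arrays 3 and 4, where Slc6a6 differed by −2.03 and −1.51. The deficient females were on arrays 1 and 2, where it differed by −0.1 and −0.11. The lowest controls, at 9.60 and 9.10, were the females of arrays 3 and 4. Among the deficient animals, sex, array and whatever the letter marks cannot be told apart. Without deficient replicate 2 the difference was −0.49 and without deficient replicate 4 it was −0.44, while without deficient replicate 3 it was −1.49 (adjusted p 0.0698 by limma), and none of the 12 refits passed. In females alone Slc6a6 differed by 0.48. Deficient males and deficient females also did not overlap in several other tested members, the called Slc1a3 and Slc7a2 among them. How common that was over all genes was not counted.

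**Figure D4:**
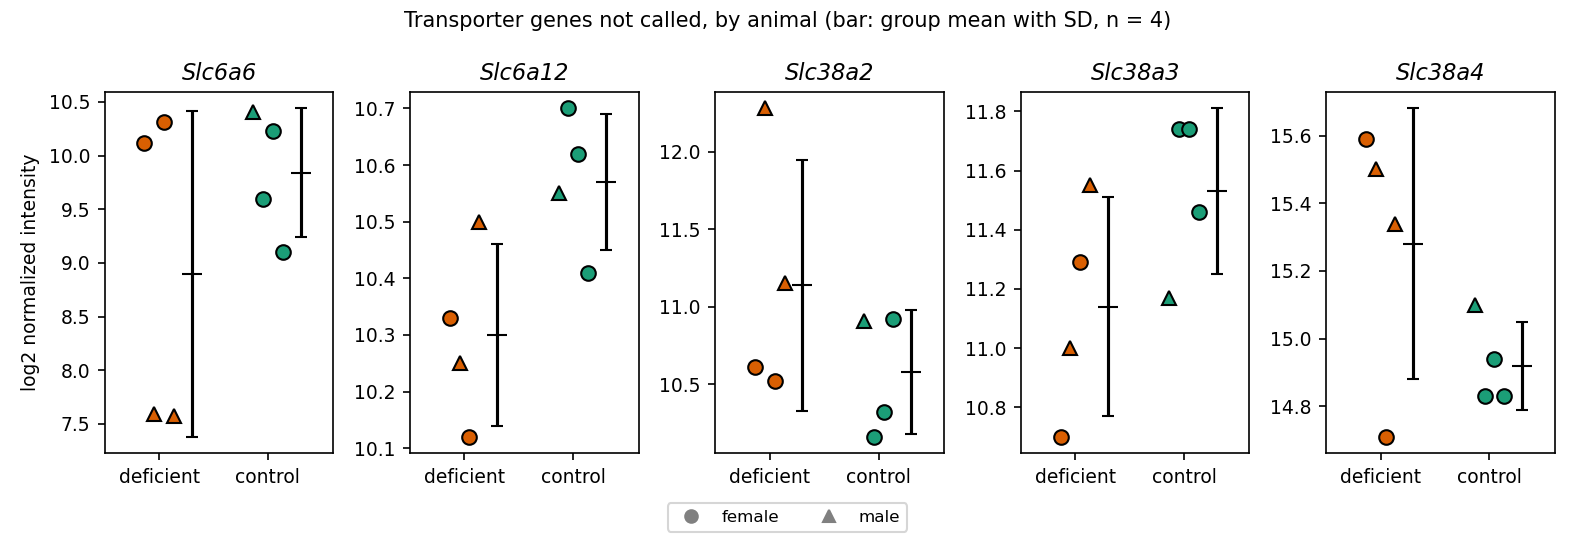
Log2 normalized intensity of 5 genes that were not called, in each animal, with deficient livers left of control livers, circles for females and triangles for males, and bars for the mean and SD of 4 animals. Each panel has its own y axis, which does not start at 0; the deficient males stand at 7.59 and 7.57 for Slc6a6, and 1 deficient male stands at 12.28 for Slc38a2.

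Of the other SLC6 genes, Slc6a8, the creatine carrier, differed by −0.11 ± 0.12. Slc6a9 encodes the glycine carrier GlyT1, and its 2 tested probes differed by 0.12 and −0.13, neither of which passed. Of the 8 SLC6 carriers of neutral amino acids only Slc6a18 was tested, with a difference of 0.03 ± 0.08. Slc6a2 and Slc6a11, carriers of noradrenaline and GABA, differed by 0.06 and 0.02. Slc6a18 and Slc6a2 each had another probe, which was not well above background in any sample. Over the 7 tested SLC6 carriers of osmolytes, creatine and neurotransmitters 1 fell, none rose, and the median was −0.11. The name match Slc7a6os differed by −0.04.

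Genes that work with these carriers were read from 4 lists, of 78 gene names with 55 tested. Lars and Lars1, Tmem27 and Cltrn, and Pqlc2 and Slc66a1 are each an old and a new name of the same gene. Over all genes tested 11.1% were called, and the counts in each list are to be read beside that share. Of the 18 names of other amino acid, peptide and lysosomal transporters, 8 were tested with a median difference of 0.0060, 1 rose and 2 fell. Slc16a10, the facilitative carrier of aromatic amino acids, read 7.67, 7.51, 7.74 and 7.62 in deficient livers, against 8.01, 8.04, 8.11 and 7.85 in control livers, without overlap, and its difference was −0.37 ± 0.08 with an adjusted p of 0.0202 by limma. Slc17a9, a vesicular nucleotide carrier, fell by 0.62 and Slc35f6 rose by 0.37 on the log2 scale. Of the 13 gamma-glutamyl cycle genes, which salvage and rebuild glutathione, 10 were tested with a median difference of −0.25, and Cndp2, a dipeptidase, fell by 0.36. Of the 8 names of auxiliary proteins 6 were tested with a median difference of −0.080, and Arl6ip5, which is known to restrain the glutamate carrier Slc1a1, fell by 0.55.

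Of the 39 gene names of amino acid sensing and mTORC1, 31 were tested with a median difference of 0.028, 5 rose and 1 fell. Trib3, a pseudokinase induced by ATF4 in amino acid shortage and endoplasmic reticulum stress, read 12.12, 11.21, 9.65 and 11.26 in deficient livers, against 9.56, 8.79, 8.24 and 8.60 in control livers. The groups did not overlap, with deficient replicate 3 only just above control replicate 1, and the difference was 2.26 ± 0.34 (SE) with an adjusted p of 0.00628 by limma. Ddit3, the transcription factor CHOP, rose by 0.88, Castor1, an arginine sensor, by 0.47, Nprl2, a GATOR1 subunit, by 0.36 and Lamtor4, a Ragulator subunit, by 0.28. Sesn1, a sestrin of the leucine-sensing family, fell by 0.47 on the log2 scale. Atf4 itself differed by −0.0034 ± 0.0944, Eif2ak4, the kinase GCN2, by −0.05 ± 0.12 and Mtor by −0.06 ± 0.09, and none of these passed.

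The livers carried their defining markers, and marker lists of 12 cell types with 58 tested genes showed what else moved between the diets. The share called over all genes tested was 11.1%. Of 9 hepatocyte markers 4 were called lower (Fgb, Tf, Ttr and Serpina1), none was called higher, and the median difference was −0.59. The 5 not called went both ways. Alb and Cps1 differed by −1.01 and −0.48, and Tat, Apoa1 and Apob by 0.92, 0.35 and 0.24. The mean hepatocyte marker level was 15.46 to 16.08 in deficient livers and 15.96 to 16.17 in control livers. None of the 8 Kupffer cell, 5 endothelial, 4 cholangiocyte, 4 erythroid, 1 lymphocyte and 1 pancreas markers tested passed, and of 6 stellate cell markers Lrat fell. The differences of the 4 erythroid markers were all negative, from −0.61 to −0.20 with a median of −0.49, and the groups overlapped in each. Of 4 neutrophil markers tested 3 fell, and their mean level was 7.96 to 8.59 in deficient livers and 8.38 to 8.92 in control livers. Of 3 skeletal muscle markers tested Tnnc2 rose, reading 10.24 to 11.43 in deficient livers and 7.46 to 8.31 in control livers. Tnni2 and Acta1 overlapped between the groups and were not called, with their highest values, 11.50 and 9.16, in deficient replicate 3. The mean level of the 3 was 8.57 to 10.70 in deficient livers, the highest in replicate 3, and 7.52 to 7.99 in control livers. Outside replicate 3 that gap came from Tnnc2. The part of these shifts in the transporter differences was not tested.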

How the data were processed

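Spot intensities were deposited by the authors as Agilent Feature Extraction 10.7.1.1 output, per the submitters' processing notes, with 2 channels an array and 4 arrays of 1 slide. A deposited table of normalized intensities was used only as an alternative, made by steps that the sources used here do not state. Samples were matched to channels by their labelled dye and to arrays by identical files. From these intensities limma 3.58.1 (R 4.3.3) gave log2 values by normexp on mean signal and local background (offset 50), leaving out spots whose local background exceeded 5 times the channel's median, then loess within arrays with control spots at weight 0, Aquantile between arrays, and averaging of spots of a probe. A sample counted as well above background when at least 0.5 of a probe's spots were. The model had diet and dye as terms and array as a random block. Microarray signal gives no counting depth, and the number of animals limits the precision.

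The members, gene lists and the rule for named genes (every called member, plus carriers of liver, kidney and signalling interest listed beforehand whether or not they moved) were chosen with earlier results of these data known, as was the step on background spots. Replicate numbers follow sample order and do not pair animals. Names are those of the array, of which 61 of 62 equal the RefSeq symbol. Slc6a20 is now Slc6a20a. Sequences are RefSeq's on GRCr8, and probe positions are rn4, which were not converted. Whether a probe lies in an exon or a UTR was not analysed here. The alternatives tried were other background corrections and normalizations, filters, probe rules and model terms, the deposited table, females only, and leaving out each animal or array.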

Additional observations from a re-analysis of the deposited data

Results flagged for a closer look

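In the 28 tested genes, the 4 values of each diet group were checked for an animal far from the other 3, which made 56 groups of 4, and chance alone marks about 1 group in 20. In 3 groups an animal stood apart, each time a deficient animal below its group. Slc38a5, a glutamine and histidine carrier, was at 6.60 in deficient replicate 4, where the other deficient livers lay between 7.08 and 7.13, so that the gap was 0.907 of the range. Slc38a9 was at 6.69 in deficient replicate 1, with the others between 7.02 and 7.05 and a gap of 0.9 of the range. Both of these genes were dim, with Slc38a5 well above background in 3 deficient animals and Slc38a9 in 2. Slc43a3 was at 8.84 in deficient replicate 1, with the others between 9.49 and 9.61 and a gap of 0.837 of the range.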

How the results depend on the processing

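None of the 29 alternatives reversed a called gene that was tested in it, but the counts moved. Slc1a3 was tested in 28, since a filter on all 8 samples being well above background left it out. As reported, 2 transporter genes were higher, 3 were lower and 1657 genes were called in all. With spots in very high local background kept, 0 were higher and 955 genes were called in all. Without the array block, 1 was higher, 0 were lower and 399 were called in all. Within-array ratios with a dye term gave 0, 0 and 461, no dye term gave 0 higher and 839 in all, a term for sex gave 1, 1 and 811, females only gave 0, 0 and 50, and sample weights, added after seeing the data, gave 5 higher and 4068 in all. Leaving out an animal or array gave 0 to 3 higher, 0 to 4 lower and 212 to 3546 in all, the fewest without array 3 and the most without deficient replicate 2. The causes of these moves in the counts were not tested. Replicate numbers do not pair animals, but arrays pair 1 deficient with 1 control animal, and the ratios within arrays, which are that paired fit, ended all 5 calls. The genes that changed direction were all uncalled. With the mean over probes, Slc6a9 was −0.0020 and Slc43a2 −0.016, and with sample weights Slc43a2 was −0.011. In females only, Slc6a6 was 0.48 and Slc6a8 0.18. Over the refits without an animal or array, Slc1a5 ran from −0.10 to 0.23, Slc7a8 from −0.051 to 0.30, Slc38a7 from −0.026 to 0.39 and Slc43a3 from −0.48 to 0.0048. Slc43a3 also passed without array 4 (adjusted p 0.039 by limma), and with sample weights Slc3a2, Slc6a6, Slc38a2 and Slc38a4 passed. The median of all genes stayed between −0.00063 and 0.023, as each normalization used centres it near 0.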

Other observations

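Slc6a20, a carrier of proline and other imino acids, did not reach the filter and was chosen here after its values were seen. It was well above background only in deficient replicate 4, where it read 7.96, and it lay between 6.39 and 6.61 in the other 7 animals. Its log2 difference over all animals was 0.39 ± 0.23.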
